A study of Mus musculus with 2 samples.

Results

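Open chromatin was examined at *Ttn* and 8 further genes that build the scaffold of the heart sarcomere: *Tcap*, *Actn2*, *Ldb3*, *Csrp3*, *Nebl*, *Mybpc3*, *Myom1* and *Myom2*. These 9 genes were chosen by name out of 21951 protein-coding genes, and every GENCODE M21 start of each was taken with 1 kb on each side, together with the gene body and 50 kb on each side. The data are ATAC-seq peak lists, in which a transposase marks accessible DNA, from wildtype FVB mouse embryonic hearts at E11.5. There were 2 replicates, each prepared from a pair of dissected whole hearts, and both form 1 group with no treated, mutant or other tissue to set it against. A region was called shared where peaks of both replicates overlapped by at least 1 bp, which gave 98924 regions genome-wide, of which 187 lay in the 9 gene windows. With a single group no test between conditions exists, so each value is given per replicate and set beside the spread between replicates.

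The sarcomere is the contractile unit of striated muscle. Titin runs as an elastic filament from the Z-disc, where thin filaments are anchored, to the M-band, where thick filaments are crosslinked. Telethonin (*Tcap*) caps titin in the Z-disc, α-actinin-2 (*Actn2*) crosslinks actin and titin there, and the PDZ-LIM protein of *Ldb3* and the muscle LIM protein of *Csrp3* bind to that lattice. Nebulette (*Nebl*) is an actin-binding Z-disc protein of the heart, cardiac myosin-binding protein C (*Mybpc3*) sits on the thick filament, and myomesin (*Myom1*) and M-protein (*Myom2*) join thick filaments and titin in the M-band.

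Whole hearts hold several cell types, and accessibility was averaged over all of them. A shared region reached a start of 10 of 10 cardiomyocyte markers, 6 of 6 endothelial, 5 of 5 epicardial and 5 of 5 erythroid markers, and of 2 of 5 skeletal muscle, 3 of 5 neural and 1 of 5 hepatocyte markers, where 67.6% of all protein-coding genes had such a region. The share of cells in which a region was open cannot be told apart from how open it was in each cell. Replicate 1 had 118027 peaks and replicate 2 had 114783. The reported fold enrichment is the authors' value, the reads piled up at a summit plus 1 over a genome-wide background plus 1. Steps between the values put that background at 2.68 reads in replicate 1 and 2.98 in replicate 2, so that the 15.2 and 10.1 of the *Ttn* start correspond to 55 and 39 reads.

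At least 1 annotated start was open in each of the 9 genes, beside 67.6% of all protein-coding genes. Of their 61 starts, 35 (57.4%) had a shared region within 1 kb, beside 58.0% of the 93526 starts of all protein-coding genes, so the share over all starts was near the background. The outermost start was open in 8 of 9 genes (all genes, 63.5%), *Myom2* being the exception. All 11 starts within 1 kb of an outermost start were open (all genes, 84.6%), but 6 of them are starts of *Ldb3* that share 1 region. Of 41 internal starts, more than 1 kb inside the gene, 16 (39.0%) were open, beside 32.2% over all genes. This share was uneven, with 1 of 14 internal starts of *Ttn* and 15 of 27 (55.6%) of the other genes. Many starts lie side by side and share a region. With starts whose windows overlap counted once, 17 of 36 groups were open, beside 42.0% of such groups over all genes. Starts of protein-coding transcripts were open in 26 of 40 cases (all genes, 63.6%) and starts used by other transcripts alone in 9 of 21 cases (all genes, 50.4%).

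Sequences from the regions at 4 of these starts show what the accessible DNA holds where the starts are poor in CpG. They are given 5′ to 3′ on the strand of the gene, from the C57BL/6J reference GRCm38.p6 and not from FVB reads, and capitals mark matches to the motifs spelled out further on.
Ttn outermost start, around the replicate 1 summit at -56 bp, chr2:76982553-76982653, strand -: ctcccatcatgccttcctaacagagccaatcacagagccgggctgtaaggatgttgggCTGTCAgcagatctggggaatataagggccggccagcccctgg
Csrp3, around the replicate 1 summit at -264 bp from the outermost start, chr7:48848247-48848347, strand -: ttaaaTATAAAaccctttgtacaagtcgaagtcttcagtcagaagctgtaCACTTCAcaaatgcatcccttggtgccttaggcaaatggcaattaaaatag
Tcap start, the bases just before it, chr11:98383711-98383810, strand +: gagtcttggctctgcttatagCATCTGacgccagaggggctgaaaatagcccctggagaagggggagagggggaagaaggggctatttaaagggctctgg
Ldb3 outermost start, the bases just before it, chr14:34588683-34588782, strand -: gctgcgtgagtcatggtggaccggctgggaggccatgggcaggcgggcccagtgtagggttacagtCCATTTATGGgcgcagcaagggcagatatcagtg
The *Csrp3* sequence lies upstream of the start itself, and the replicate 2 summit was 181 bp from that of replicate 1. It has a TATAAA match and an NK2 match, and that of *Ldb3* has a CArG box, the letters bound by serum response factor. Outermost starts of a second kind, rich in CpG, are shown by *Actn2* and *Myom1*.
Actn2 outermost start, the bases just before it, chr13:12340761-12340860, strand -: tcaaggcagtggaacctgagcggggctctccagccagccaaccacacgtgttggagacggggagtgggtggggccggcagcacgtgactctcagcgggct
Myom1 outermost start, the bases just before it, chr17:71002555-71002632, strand +: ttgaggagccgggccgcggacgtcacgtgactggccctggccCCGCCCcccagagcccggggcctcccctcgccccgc
Only the *Myom1* stretch carries a motif match, the GC box read by KLF and SP factors. In the windows around the summits, which enter the motif counts, the *Actn2* region has such a match and the *Myom1* region has none.

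The spread between replicates sets how far these levels can be ordered. Over the 87033 shared regions that contain the summits of both replicates, the log2 ratio of replicate 2 to replicate 1 had an SD of 0.33. Means of both replicates were therefore called apart only when they differed by more than 1.38-fold, 2 standard errors, and kept their order in both replicates. The SD depended on the level, at 0.37 for means of 5 to 10, 0.30 for 10 to 20 and 0.15 from 20, so this limit is wide for the highest regions and narrow for those of 5 to 10. By the highest region at any of its starts, *Myom1* came first with fold enrichments of 34.8 and 32.4 in replicates 1 and 2, higher than 75.2% of all genes with an open start. *Actn2* followed with 23.6 and 20.4, *Ldb3* with 24.7 and 17.1 and *Csrp3* with 17.7 and 15.3. *Nebl* had 13.6 and 15.3, *Mybpc3* 13.9 and 11.6 and *Ttn* 15.2 and 10.1. *Tcap*, with 7.06 and 5.53, and *Myom2*, with 5.98 and 5.03, were the lowest, and only 7.11% and 5.07% of genes with an open start lay below them. The median of those genes was 24.5, so the means of 8 of the 9 members lay below it. Of the 36 pairs of members 26 were apart, but among the 8 neighbours in the order only *Myom1* over *Actn2* (1.53-fold) and *Ttn* over *Tcap* (1.98-fold) were. With the SD of each level in place of 1 SD, *Actn2* over *Csrp3* (1.33-fold) was apart as well, and no other pair changed. The pairs *Actn2* and *Ldb3*, *Nebl* and *Mybpc3*, *Nebl* and *Ttn*, and *Mybpc3* and *Ttn* changed order between replicates, and *Csrp3* and *Nebl* had the same value in replicate 2.

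**Figure D1:**
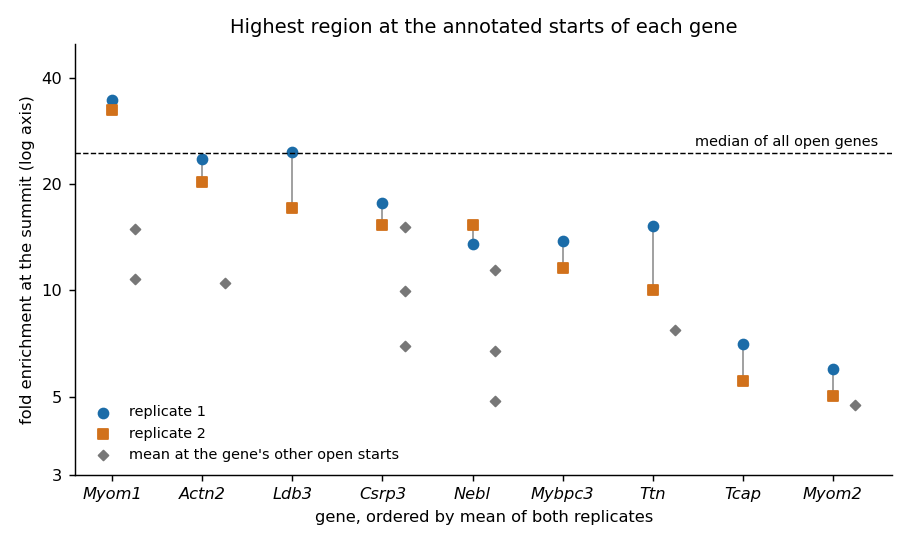
Fold enrichment at the summit (log axis) of the highest shared region within 1 kb of any annotated start of each gene, with replicate 1 as circles and replicate 2 as squares; diamonds are the means of both replicates at other open starts of the gene, and the dashed line is the median of 24.5 over all protein-coding genes with an open start. *Myom1* lies above the line in both replicates, *Tcap* and *Myom2* stand below the other 7 genes, and no error bar is drawn because each point is 1 replicate.

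*Ttn*, on chromosome 2 (GRCm38/mm10, 76703980 to 76982547, minus strand), spans 278.6 kb and has 16 annotated starts. The region over its outermost start covered 76981694 to 76982915, with its replicate 1 summit at -56 bp, and also took in the start of the longest annotated transcript, Ttn-203 with 347 exons. A second start, of Ttn-204, lay in a smaller region 2.09 kb inside the gene, in intron 1, with fold enrichments of 8.42 and 7.04. The other 13 internal starts had no region and no peak of either replicate within 1 kb. Of these, 11 fell in a stretch of 119.7 kb, between 76808638 and 76928346, without any shared region. Among them was the start used by 5 protein-coding transcripts, 114.2 kb inside the gene, whose nearest region was 59752 bp away. Within 1 kb of the starts of Ttn-220 and Ttn-224, whose windows overlap, 55.3% of all 32-base words occur once in the genome. At the other 9 starts of the stretch the share was at least 93.4%, and at 5 of them all words occur once.

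Beyond the stretch without regions lay the highest regions of the *Ttn* body, a pair in introns 222 and 223. The region at 76806971 to 76807682 had fold enrichments of 13.6 and 9.30, and that at 76806303 to 76806821 had 12.8 and 8.05, higher than 77.6% and 74.6% of all shared regions. Neither mean was apart from that of the outermost start by the 1.38-fold rule, although the pair lay 175.1 and 176.0 kb inside the gene and at no annotated start. The other 7 regions of the body had means between 3.92 and 5.63, with 3 of them side by side in intron 43. The pair and the smaller start region are shown because they had the highest values of the gene inside its outermost start.
Ttn intron 1, start of Ttn-204, chr2:76980409-76980509, strand -: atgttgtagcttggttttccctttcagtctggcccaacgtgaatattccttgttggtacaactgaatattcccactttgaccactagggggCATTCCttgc
Ttn intron 222, chr2:76807442-76807542, strand -: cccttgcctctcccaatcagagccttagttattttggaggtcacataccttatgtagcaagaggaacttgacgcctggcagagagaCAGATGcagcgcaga
Ttn intron 223, chr2:76806529-76806629, strand -: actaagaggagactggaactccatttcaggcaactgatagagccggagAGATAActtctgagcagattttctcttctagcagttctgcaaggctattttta
The window of 378.6 kb held 18 regions in all, or 4.76 per 100 kb. The highest of them belonged to neighbours, 21.5 and 24.4 at *Fkbp7* and 19.0 and 19.6 at *Plekha3*. Upstream of *Ttn* the highest flank region had 7.06 and 5.53.

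*Tcap*, which is 1.14 kb long on chromosome 11 (98383811 to 98384953, plus strand), had a single annotated start and a single region there, at 98383588 to 98383948. Its summits carried 25 and 21 reads. The sequence before the start, given above, holds an E-box match. Of the 13 regions in its window, 6 stood at the starts of *Ppp1r1b*, *Stard3* with 1700003D09Rik, *Pgap3* and *Erbb2*. The start of *Stard3*, a cholesterol transfer protein, reached 24.5 and 25.4, and that of *Erbb2*, the neuregulin co-receptor, 13.0 and 11.3. Outside all starts the highest region, in *Pgap3* 9.70 kb downstream, had 11.4 and 9.30, above the region of *Tcap* itself. The next ones, 10.7 and 25.8 kb downstream, had 8.15 and 6.29, and 9.51 and 4.78.

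*Actn2* (chromosome 13, 12269426 to 12340760, minus strand) had 3 starts within 0.036 kb of each other under a region of 1088 bp. The region behind it, at 12339304 to 12339941, had 7.88 in replicate 1 but shared the wide replicate 2 peak of the first, so its 20.4 in replicate 2 is not a separate value. An internal start of a non-coding transcript 66.7 kb inside was open at 11.7 and 9.30, and an internal coding start, Actn2-204, was not, with the nearest region 1225 bp away. Intron 2 held most of the strong body regions. That at 12337580 to 12338291, 2.74 kb inside the gene, had 21.2 and 19.6, near the values of the start. Intronic regions followed across the gene, with 13.6 and 10.6 in intron 13 and 12.0 and 9.30 further along intron 2. With 16 regions in 71.3 kb, the body held 22.4 regions per 100 kb, a density exceeded by few genes, since 94.6% of the protein-coding genes of at least 10 kb were lower. The highest region of the window was at the start of *Mtr*, the methionine synthase gene, with 44.0 and 45.0, far above those of *Actn2* itself. The region in intron 2 near the start has TEAD and MEIS matches.
Actn2 intron 2, chr13:12337973-12338073, strand -: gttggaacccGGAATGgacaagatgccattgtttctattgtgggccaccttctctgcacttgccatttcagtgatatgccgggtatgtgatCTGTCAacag

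*Ldb3* (chromosome 14, 34526603 to 34588682, minus strand) had the highest density of the 9 genes, 37 regions in 162.1 kb or 22.8 per 100 kb, and 99.3% of protein-coding gene windows were lower. Its 7 starts at the 5′ end shared a region with 24.7 and 17.1 and reached the edge of a wide one just downstream, with 13.0 in replicate 1 and the same peak in replicate 2. The only internal start, of a non-coding transcript, had none. Several intronic regions were as high as the start. The highest, in intron 4 at 34573284 to 34574639, had 26.1 and 21.9 and was above 92.1% of all shared regions. In intron 10, regions at 34548335 to 34549855 and 34544351 to 34545214 had 21.7 and 20.1, and 19.0 and 15.8. None of these 3 intronic means was apart from that of the start by the 1.38-fold rule. Some regions of the body were cut from 1 wide peak. Next to the intron 4 region a piece of 277 bp carried the same replicate 1 value of 26.1 but 4.02 in replicate 2. In the flanks the start of *Bmpr1a*, a BMP receptor, had 31.5 and 33.7, and *Opn4*, with its summit at -3.56 kb, had 16.8 and 16.6. RefSeq, unlike GENCODE M21, also places a start of *Ldb3*, at 34590314, within 1 kb of the *Opn4* region. The intronic sequence with the highest value has a MEIS match.
Ldb3 intron 4, chr14:34574173-34574273, strand -: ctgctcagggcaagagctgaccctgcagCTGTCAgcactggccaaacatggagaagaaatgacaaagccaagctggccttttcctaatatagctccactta

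*Csrp3* (chromosome 7, 48830398 to 48848033, minus strand) was open at all 4 of its starts. The regions nearest to the starts of Csrp3-202 and Csrp3-204 lay 778 and 580 bp away. In a body of 17.6 kb it had 9 regions, 51.0 per 100 kb, and 99.7% of genes of at least 10 kb were lower. This count includes pieces of 60 and 32 bp, at 48840140 and 48841961, cut from wider peaks. The region of the outermost start had 17.7 and 15.3. Downstream of it in intron 1 stood regions with 13.0 and 7.79, 10.9 and 9.05, 7.33 and 6.54, and 15.8 and 14.6. The last, 7.33 kb inside and reached by the window of a non-coding start, was near the level of the outermost start. A region over the last exon, exon 6, had 13.3 and 12.6. Further regions with 16.8 and 12.8, and, inside the neighbour *Zdhhc13*, with 17.1 and 14.6, lay downstream of the gene. The starts of *Zdhhc13* (40.5 and 36.5) and of the cell cycle repressor gene *E2f8* (47.0 and 43.2) were far above every region of *Csrp3* itself.

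*Nebl* (chromosome 2, 17343909 to 17731464, minus strand), the longest of the 9 with 387.6 kb, had a low density of 3.49 per 100 kb and open starts far apart. The outermost region had 13.6 and 15.3. The transcript with the most exons, Nebl-202 with 28, starts 270.5 kb inside the gene. Its start was open at 13.0 and 9.80, and upstream of it the starts of Nebl-206 and Nebl-207, 268.7 kb inside, had a low region with 5.16 and 4.53. The start of Nebl-203, 201.5 kb inside, had 8.42 and 5.03. A cluster of 4 starts 340.5 kb inside had no region within 19 kb. The highest region of the gene was at no start. It lay in intron 4 of Nebl-201, at 17523665 to 17524475, 207.4 kb inside, with 16.6 and 17.1, and 60 and 67 reads at its summits. Its mean of 16.8 was apart from the 11.4 of the Nebl-202 start, but not from the 14.5 of the outermost start. Outside starts it was followed by a region upstream of the gene, with its summit at -10.3 kb and values of 13.6 and 10.6, and by an intronic one 191.7 kb inside, with 7.33 and 7.04. No region lay in 146.0 kb between 17540165 and 17686142. The sequence of the intron 4 region has a GATA match.
Nebl intron 4 of Nebl-201, chr2:17524003-17524103, strand -: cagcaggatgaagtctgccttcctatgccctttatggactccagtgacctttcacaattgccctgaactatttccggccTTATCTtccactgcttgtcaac

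**Figure D2:**
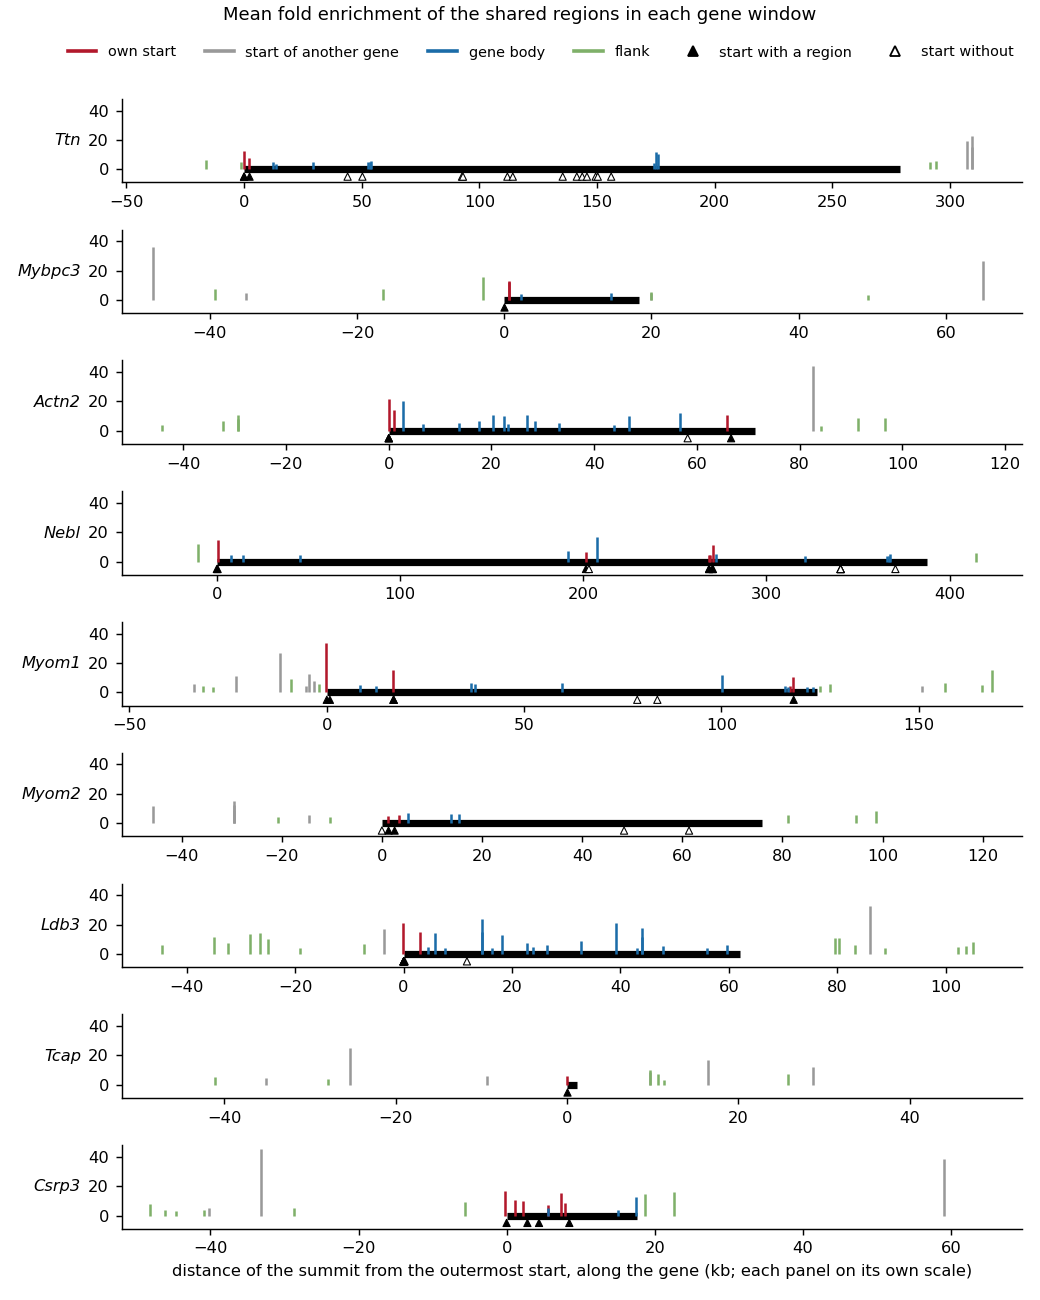
Mean fold enrichment of both replicates for each shared region (vertical lines) against the distance of its replicate 1 summit from the outermost start, in kb along the gene, for the 9 gene windows, each on its own horizontal scale. The thick bar is the gene body, filled triangles are starts with a region and open triangles starts without; regions at own starts are red, at starts of other genes grey, in the gene body blue and in the flank green. The pair of *Ttn* regions 175 to 176 kb inside the gene, the stretch of *Ttn* starts without a region and the dense bodies of *Ldb3* and *Csrp3* can be seen.

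*Mybpc3* (chromosome 2, 91118144 to 91136516, plus strand) had 1 start and, within 1 kb of it, regions at 91117596 to 91118363 and 91118499 to 91119264. Replicate 1 had a single peak of 13.9 over both, with its summit at 637 bp in intron 1, while replicate 2 had separate peaks of 11.6 and 11.1. The value of replicate 1 is therefore counted at both. When each peak had to cover 50% of the other, no region was left at the start. The body held 2 other regions, with means of 4.57 and 3.91. The strongest region outside starts stood upstream, with its summit at -2.91 kb, at 91114984 to 91115651, with 15.8 and 16.1. It overlapped an exon of the neighbour *Spi1*, a transcription factor gene of blood cells, whose own start had only 5.16 and 4.27. Next were flank regions with summits at -16.5 and -39.3 kb, with 8.15 and 7.29, and 8.15 and 7.04. The starts of *Slc39a13*, a zinc transporter, and *Madd* reached 38.0 and 33.9, and 25.3 and 28.4. The sequence at the summit in intron 1 has a GATA match.
Mybpc3 intron 1, chr2:91118731-91118831, strand +: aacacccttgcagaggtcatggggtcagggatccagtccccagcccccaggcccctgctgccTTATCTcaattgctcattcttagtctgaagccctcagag

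*Myom1* (chromosome 17, 71002633 to 71126856, plus strand) owed its rank to a region of 2109 bp that also covered starts of *Myl12a* and *Myl12b*, genes of regulatory light chains of non-muscle myosin. How much of this accessibility belongs to which gene cannot be told apart. The outermost start is that of Myom1-209 alone among protein-coding transcripts, while Myom1-201, Myom1-202 and Myom1-203 start 16.9 kb inside. That internal start had a region of its own, at 71019174 to 71020203, with 16.3 and 13.6. Taken alone, this region would place *Myom1* between *Csrp3* and *Nebl* in the order of starts. Its sequence has a GATA match and a CArG box a few bases apart, while the outermost start has neither in the bases shown.
Myom1 internal start, chr17:71019405-71019505, strand +: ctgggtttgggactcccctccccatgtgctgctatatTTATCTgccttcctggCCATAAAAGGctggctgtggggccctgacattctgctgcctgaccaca
A non-coding start 118.3 kb inside was open at 11.7 and 9.80, and starts 78.7 and 83.8 kb inside were not. In the body outside starts the highest region lay in intron 25, with 13.0 and 10.8. The window had 30 regions, 7 of them at starts of other genes, among which *Myl12b* reached 24.7 and 28.4 at 70989899 to 70991491. Downstream, 168.6 kb from the outermost start, a flank region had 13.9 and 16.1, and upstream, with its summit at -8.98 kb, one had 10.1 and 8.30.

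*Myom2* (chromosome 8, 15057653 to 15133541, plus strand) had the lowest values at its starts among the 9 genes. Its only start of a protein-coding transcript had no region and no peak of either replicate within 1 kb, and the nearest region began 1184 bp away. That region, at 15058837 to 15059036, had 5.16 and 4.27, with 18 and 16 reads at its summits, and lay at the start of a non-coding transcript. The next, within 1 kb of the start of another non-coding transcript, had 5.98 and 5.03, and a region in the same intron 5.12 kb inside the gene had 8.15 and 5.28, followed by 5.16 and 7.29 at 13.9 kb. The highest region outside starts was not in the gene but in the flank, 98.6 kb from the outermost start, with 9.24 and 7.79. Past 15073197 the remaining 60.3 kb of the gene held none. The stronger regions of the window stood at *Kbtbd11*, with up to 15.2 and 14.8, and the start of *BB014433* had 6.25 and 4.53. The sequence of the highest region at a start is shown because both of its motif matches are NK2 matches.
Myom2 intron 1, chr8:15061027-15061127, strand +: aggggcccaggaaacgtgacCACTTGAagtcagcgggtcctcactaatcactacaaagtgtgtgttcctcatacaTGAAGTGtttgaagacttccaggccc

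Across the 9 windows, 27 regions stood at starts of the gene itself, 31 (16.6%) at starts of other genes, 68 elsewhere in the gene body and 61 in the flanks. Beside the neighbours named above, regions reached starts of genes not annotated as protein-coding, Gm37844 (at *Kbtbd11*), Gm17110 (at *Bmpr1a*), Gm49012 (at *Opn4*), Gm2788 (at *E2f8*), AC154187.1 and AC154218.1. Density ran from 3.49 regions per 100 kb at *Nebl* and 4.76 at *Ttn* through 8.53 at *Myom2*, 11.0 at *Mybpc3*, 12.9 at *Tcap*, 13.4 at *Myom1*, 14.0 at *Actn2* and 17.0 at *Csrp3* to 22.8 at *Ldb3*. The median over all protein-coding gene windows was 5.41, and 7 members lay above it, 6 of them above the third quartile of 8.94. The longest genes, *Ttn* and *Nebl*, were below the median. This changed without the regions at starts of other genes, where all 9 members lay above the median of all genes, *Ttn* with 3.96 and *Nebl* with 3.49. In that setting the median of the members fell from 12.9 to 7.60 and that of all genes to 3.21, and the same 6 members, *Mybpc3*, *Actn2*, *Myom1*, *Ldb3*, *Tcap* and *Csrp3*, stayed above the third quartile, then 5.82. Under a q-value limit of 1e-10 the members had a median of 4.94 and all genes one of 2.74, again with these 6 above the third quartile, 4.85, while *Myom2*, at 2.27, was then below the median.

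**Figure D3:**
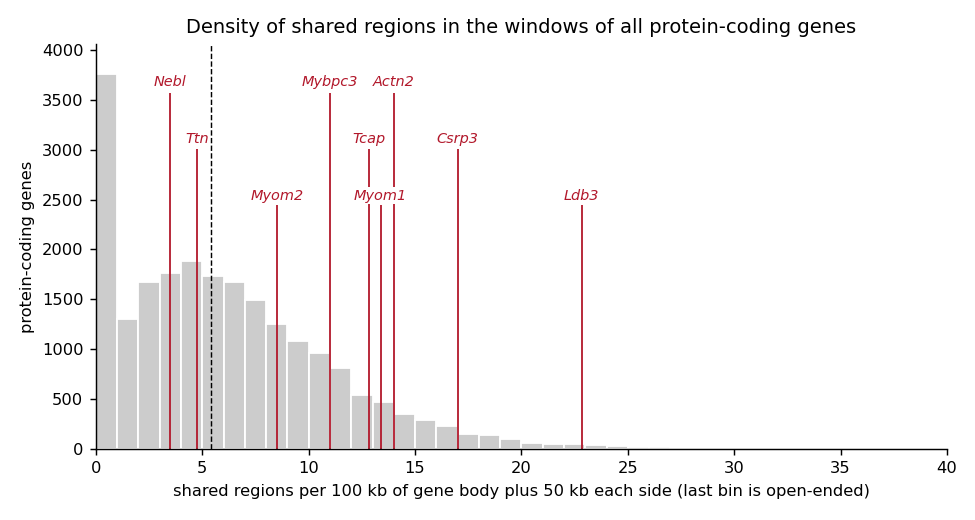
Number of protein-coding genes (grey bars, vertical axis) by shared regions per 100 kb of gene body plus 50 kb on each side (horizontal axis), with the 9 genes as labelled red lines and the median of all genes, 5.41, as a dashed line; the heights of the red lines carry no value. *Nebl* and *Ttn* lie left of the dashed line and *Ldb3* lies far to the right, at 22.8.

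The values of both replicates were mostly close over the 187 regions. In 24 regions the summit of a replicate lay outside the region, and 8 of these differed by more than 2-fold between replicates. Of the 163 others 3 did, a flank region of *Actn2* at 12243743 (12.0 and 5.03), a body region of *Ldb3* at 34528753 (8.15 and 3.52) and a flank region of *Ldb3* at 34633007 (3.80 and 8.55). Among these 163, the log2 ratio of replicate 2 to replicate 1 had an SD of 0.32 and a median of -0.22, beside -0.11 over the whole genome, so replicate 2 read somewhat lower in these windows. Summits of both replicates lay a median of 43 bp apart, against 40 bp genome-wide.

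**Figure D4:**
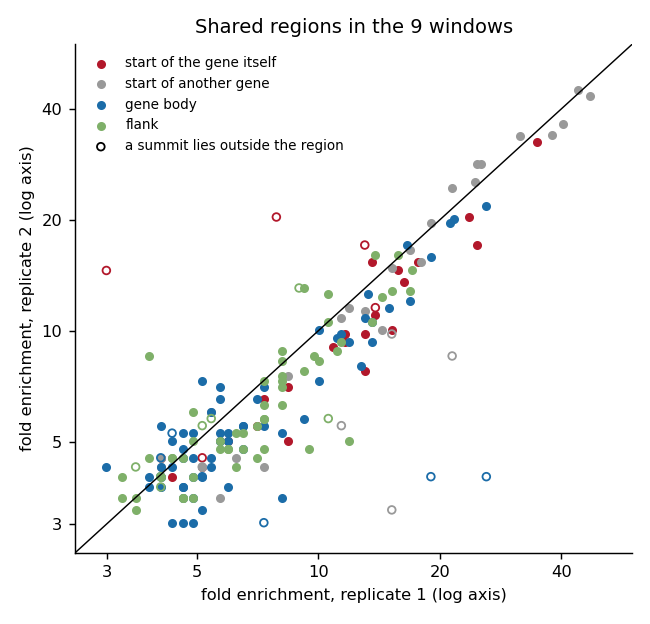
Fold enrichment of replicate 2 against replicate 1 (both log axes) for the 187 shared regions of the 9 windows, coloured by where the region lies; the line marks equal values, and open circles are the 24 regions with a summit outside the region. Most filled points lie near the line, the highest of them at starts of other genes, and of the 11 points more than 2-fold from it 8 are open and 3 are filled.

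Regions at the starts of these genes had lower medians of CpG and GC content than those at all accessible starts, but the genes were not alike. Within 100 bp of the summit, regions at member starts had a median observed over expected CpG of 0.22, beside 0.69 over the 20831 regions at starts of all protein-coding genes, and a GC content of 51.2% beside 62.2%. Since this set includes internal starts, the outermost starts were also taken alone. There *Mybpc3* had 0 (at its summit in intron 1), *Tcap* 0.18, *Csrp3* 0.27, *Ldb3* 0.29 and *Ttn* 0.36, all under 0.64, the first quartile of 13928 outermost starts. In contrast, *Actn2* with 0.73, *Nebl* with 0.77 and *Myom1* with 0.82 were near the median of 0.82. Regions in the bodies of the members had a median of 0.20, close to the 0.21 of all regions outside starts.

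**Figure D5:**
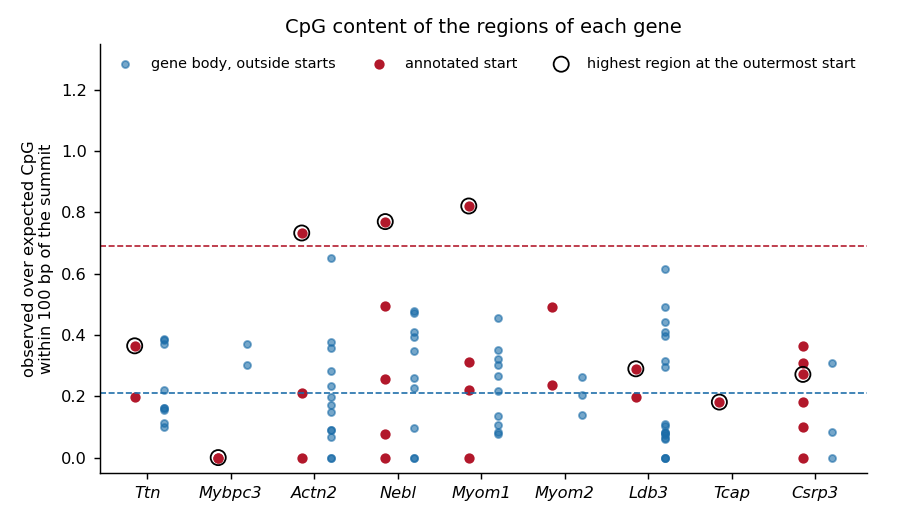
Observed over expected CpG within 100 bp of the summit (vertical axis) for each region at an annotated start (red) and elsewhere in the gene body (blue) of the 9 genes, with the highest region at the outermost start ringed; dashed lines are the medians of all regions at starts of protein-coding genes (red, 0.69) and of all regions outside starts (blue, 0.21). The rings of *Actn2*, *Nebl* and *Myom1* lie above the red line and those of the other 5 genes are nearer the blue line.

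Motifs were counted on both strands within 100 bp of the summit as AGATAA or TGATAA for GATA factors, GGAATG for TEAD, AGGTGT for T-box factors, TNAAGTG for NK2 factors, CATCTG for the HAND E-box, TGACAG for MEIS, GGGCGG for KLF and SP factors and TATAAA for the TATA box, beside the MEF2 and CArG consensus. MEIS and E-box matches can overlap, since one may end in the letters that open the other. NK2 matches, the letters read by factors such as NKX2-5, were in 7 of 27 regions at member starts (25.9%) and in 16 of 68 in member bodies (23.5%), where all starts had 6.16% and all regions outside starts 13.2%. In the flanks, 9.84% of regions had one. TEAD matches were in 25.9% of regions at member starts (all starts, 8.78%) and 22.1% in bodies (all outside starts, 16.5%). GATA matches were in 22.2% at member starts (all starts, 10.1%) and 33.8% in bodies (31.4%), MEIS in 22.2% (12.7%) and 30.9% (23.8%), and the HAND E-box in 11.1% (8.76%) and 22.1% (17.5%). T-box matches were in 3.70% (6.98%) and 10.3% (9.02%), and TATA in 11.1% (3.55%) and 10.3% (7.90%). KLF and SP matches were less frequent at member starts, with 11.1% beside 45.7% of all starts, but more frequent in bodies, with 11.8% beside 7.08%. The CArG box was in 2 member starts, those of *Ldb3* and the internal start of *Myom1* (7.41%; all starts, 0.91%), and in 1 body region (1.47%; 1.33%). MEF2 matches were in no member start (all starts, 0.62%) and in 2 body regions (2.94%; 1.97%), both of *Ldb3* and with the same summit. By the medians of base composition, regions at member starts were nearer to all regions outside starts than to all starts. Beside regions outside starts, GATA, MEIS, HAND E-box, T-box and MEF2 matches were less frequent at member starts. NK2, TEAD, TATA, CArG, and KLF and SP matches were more frequent. Of the NK2 matches at member starts, those of *Tcap* and *Csrp3* were at outermost starts and the others at internal ones. All these shares rest on few regions, and a match is letters in a window and not a bound site. Regions cut from a wide peak can share a replicate 1 summit and with it the letters searched, as did the 2 start regions of *Mybpc3*, 2 pairs of body regions of *Ldb3*, and a start and a body region of *Csrp3*. With each summit counted once in its set, 26 at member starts and 66 in bodies were left. NK2 matches were then in 26.9% and 24.2% of them (all starts, 6.21%; all outside starts, 13.2%), GATA matches in 19.2% and 31.8% (10.3%; 31.4%), and MEF2 matches in 1.52% of the bodies (1.95%).

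Other genes of the sarcomere, together with relatives of the members, gave the setting for the 9. A shared region reached a start of 46 of 53 of them (86.8%), beside the 67.6% of all protein-coding genes given above. In the Z-disc and costamere list 17 of 20 were open, the highest being *Bag3* (32.9 and 33.4), a co-chaperone, *Ankrd1* (29.6 and 22.1), a titin-binding stress protein, and *Fhl2* (25.3 and 19.9), a LIM protein. *Myoz3*, *Myot* and *Cavin4* were not open. Of the M-band and titin partners 9 of 11 were, led by *Trim55* (29.1 and 27.4), a ubiquitin ligase that binds titin, *Fhl1* (25.5 and 27.7) and *Obsl1* (27.2 and 18.4, in a region that also covers a start of *Inha*). *Myom3*, the third myomesin, had no region at any of its 3 annotated starts. All 6 genes of thin filament length were open, with *Tmod1* (34.0 and 35.2), which caps the pointed end of actin, *Lmod2* (28.5 and 28.2) and *Lmod3* (12.8 and 10.1) the highest. Among relatives of the members 14 of 16 were open. *Pdlim5* (39.9 and 41.5), related to *Ldb3*, *Csrp2* (37.8 and 38.0), related to *Csrp3*, and *Actn3* (35.6 and 28.7, in a region shared with *Zdhhc24*), related to *Actn2*, were the highest and lay above the corresponding member in both replicates. *Mybpc1* and *Mybph*, relatives of *Mybpc3*, had no region at a start.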

How the data were processed

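ATAC-seq of wildtype E11.5 hearts (2 replicates) was analysed from the peak lists as deposited. Per the paper's methods and the submitters' processing notes, reads were trimmed (Trim Galore 0.6.6, cutadapt), mapped to GRCm38/mm10 (Bowtie2 2.4.2), filtered for duplicates and mapping quality (SAMtools 1.12), and peaks were called by the authors with MACS2 per replicate, without local background. The stated p-value limit is looser, and the stated extension length shorter, than the deposited lists show, in which the lowest −log10 p was 3.32 and 2.98, the lowest −log10 q 1.71 and 1.37 (replicates 1 and 2) and the shortest peak 200 bp. The lists were used as deposited. In the deposited lists the fold enrichment is a ratio at the summit, and −log10 p and −log10 q values and a whole-number score derived from q are given by the authors' caller. Reads that map to repeats are lost by such filters, so repeated sequence can lack peaks. The lists hold no read totals. Reads at summits were worked out from the step between fold enrichments, which gave whole reads within 0.02 for 100.0% of peaks in both replicates, and carry no counting interval.

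Shared regions are the parts of replicate 1 peaks covered by replicate 2 peaks (bedtools 2.31.1, at least 1 bp), merged where they touch. Each takes the highest overlapping peak of each replicate, so 2 regions can share 1 wide peak. Starts, introns and exons are those of GENCODE M21, and sequences those of GRCm38.p6 (RefSeq), read with samtools 1.23.1. Introns are numbered in the transcript with the most exons that spans the summit.

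The members, lists and motifs were chosen with earlier results of these data known. The genes named were all 9 members, the 3 highest regions per window outside starts, other genes whose starts have a region there, and the 3 highest of each list of sarcomere genes or relatives. Relatives are genes of the same families and need not be part of the sarcomere. Genes without a region in a list were named in addition, as were further body and flank regions, chosen after their values were seen. No test was run. Alternatives were p- and q-value limits, reciprocal overlap, each replicate alone, other start windows, coding starts, other flanks, and leaving out other genes' starts. Start groups, regions holding both summits, motif shares by distinct summit and the spread by level were chosen after seeing the data. The overlap code was checked on simulated lists of 5000 peaks, where it found 3509 of 3509 built overlaps. Python 3.11.15, NumPy 2.4.6, pandas 2.3.3, Numba 0.67.0 and Matplotlib 3.10.9 were used. A gene of the M-band list enters its counts and is not reported here by name.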

Additional observations from a re-analysis of the deposited data

How the results depend on the processing

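No paired analysis was possible because all samples belong to 1 group. The 35 open starts, 9 open genes and 187 regions stayed within 1.5 times of these counts under the alternatives tried, with 3 exceptions. Start groups in place of starts gave 17 open, a q-value limit of 1e-10 left 86 regions, and gene bodies alone held 95. That limit left no region at the starts of *Tcap* and *Myom2*, a reciprocal overlap of 50% left none at *Mybpc3*, and coding starts alone left *Myom2* without one. The median density of the members, 12.9 per 100 kb, became 12.0 with a p-value limit of 1e-5, 4.94 with the q-value limit, 10.9 with reciprocal overlap, 13.2 and 11.1 with flanks of 25 and 100 kb, 21.8 in gene bodies alone, 7.60 without regions at starts of other genes, and 11.9 with regions holding both summits. Either replicate alone gave 13.5 to 13.8. *Ldb3* had the highest density in each of these settings but gene bodies alone, where *Tcap*, with 1 region in a short gene, was the highest, and *Nebl* had the lowest in all of them. The median of the highest fold enrichment at a start, 14.5, was 15.2 to 15.3 with either replicate alone and the same in the other settings. *Myom1* stayed the highest in all of them. Counting shared summits once moved the share of body regions with a MEF2 match from 2.94% to 1.52% and no other motif share by more than 1.16-fold. Taking the spread by level called 27 pairs of members apart in place of 26.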

Other observations

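Peaks called in only 1 replicate were low in the 9 windows, and their shares were near those of the genome. Of 216 peaks of replicate 1, 39 (18.1%) had no partner in replicate 2, and of 212 peaks of replicate 2, 31 (14.6%) had none in replicate 1, beside 19.0% and 17.2% over the genome. The highest such peaks had fold enrichments of 5.43 and 5.28. They were spread unevenly over the genes, with 11 of 34 replicate 2 peaks of *Actn2* and 3 of 26 of its replicate 1 peaks, and with 5 of 22 replicate 1 peaks of *Ttn* and 1 of 18 of its replicate 2 peaks. At the internal start of Ldb3-206, which has no shared region, replicate 2 had 2 peaks within 1 kb and replicate 1 none.

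In 161 of the 187 regions all 32-base words occur once in the reference, and the lowest region had 86.8%. Within 1 kb of a start all words occur once at 16 of the 35 starts with a region, with a lowest share of 86.7%, and at 9 of the 26 without. Of the latter, the starts of Ttn-220 and Ttn-224 were the lowest with 55.3%, followed by the outermost start of *Myom2* with 87.7% and that of Actn2-204 with 90.4%. The open start of *Myom2* next to its outermost one had 87.6%. Whether repeated sequence bears on the missing regions was not tested. Over whole gene bodies, the share of such words was 95.6% in *Ttn*, 89.0% in *Nebl* and 89.1% in *Myom2*, and at least 94.6% in the other 6 genes.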
